A study of Mus musculus with 16 samples.

Results

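Liver libraries of mice that lack Gpr132 in Lyz2-expressing cells were compared with those of floxed controls without Cre, both on vehicle: 2 libraries against 2, the 4 of the 16 libraries of the series whose titles name liver and vehicle. Controls carried floxed Gpr132 alone (GPR132fl/fl, here fl/fl), and the deleted group carried the same floxed gene with Cre recombinase under the Lyz2 promoter (Lyz2_cre+/_GPR132fl/fl, here CKO). All mice were of the C57BL/6 strain, were fed a diet written HFD and, in these 4 libraries, received vehicle. A further 4 liver libraries, 2 of fl/fl and 2 of CKO mice given the GPR132 antagonist NOX_6_18, shared the estimate of the spread and are set beside the vehicle values. Age, sex, dose, duration and the kind of vehicle are not stated in the labels. The labels do not say whether the 2 libraries of a group are from different animals. The p-values therefore weigh differences against the spread of these libraries alone, and that spread may be technical.

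GPR132 is a G protein-coupled receptor of the proton-sensing family, carried mainly by myeloid and lymphoid cells, that responds to acid and to oxidized products of linoleic acid. Lyz2 encodes lysozyme, and its promoter drives Cre in macrophages, monocytes and neutrophils, so a cell that does not use this promoter keeps its Gpr132. Kupffer cells, the resident macrophages of the liver, line the sinusoids next to endothelial cells and clear particles and old red cells from the blood, while hepatocytes make most plasma proteins and carry out gluconeogenesis, amino acid breakdown and bile acid synthesis.

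Libraries held 45624957 to 60761705 counts, mitochondrially encoded genes took 43.0 to 44.9% of them, and 22051 to 23238 genes had a count. Before any single gene is described, 1 feature of the libraries bears on every result: the pair of fl/fl libraries on vehicle lay far from the other 6. On the first principal component of log2 CPM (counts of a gene scaled to the library total), which held 25.03% of the variance, they lay at 58.6 and 77.3, and the other 6 liver libraries, fl/fl on NOX_6_18 included, lay between −25.99 and −19.8. In 24.9% of the 19515 genes tested, both fl/fl vehicle libraries were below or above all 6 others, against 6.22% for the CKO vehicle libraries. They are also the only liver libraries with neither the deletion nor the antagonist. Genotype, an action through the receptor that deletion and antagonist share, and whatever else sets these libraries apart cannot be told apart on vehicle. No vehicle comparison exists without them, so many of the gene groups below are set beside the genotype contrast on NOX_6_18. That contrast uses none of the 4 vehicle libraries, but both genotypes received the antagonist there, so it is no repeat of the vehicle contrast.

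The labels name macrophages as the source of the RNA and also say that the tissue itself went into liquid nitrogen. Macrophage genes were present: Clec4f, a Kupffer cell lectin, stood at 480.5 and 506 CPM in fl/fl and 575 and 577 CPM in CKO, and Adgre1, which encodes the F4/80 antigen, at 116 and 122 CPM in fl/fl and 119 and 118 CPM in CKO. Genes of other liver cells stood beside them. Per kilobase of exon, the fl/fl mean was 199.6 CPM for Clec4f and 36.8 for Adgre1, against 845 for the hepatocyte gene Alb, 177 for Stab2, a scavenger receptor of sinusoidal endothelium, and 2862 for the globin gene Hbb-bs. Summed over their lists, 19 hepatocyte genes stood at 3714 and 3894 CPM in fl/fl on vehicle. The 12 sinusoidal endothelial genes stood higher, at 9478 and 9450 CPM. The libraries thus held RNA of several liver cell types, and what share came from hepatocytes was not tested. A lower or higher value in such a mixture can mean a change in cells of a type or in RNA per cell, which cannot be told apart. Clec4f was not called without CKO replicate 1, CKO replicate 2 or fl/fl replicate 1 (adjusted p up to 0.0825). Alb was not called without CKO replicate 1, CKO replicate 2 or fl/fl replicate 2 (adjusted p up to 0.137).

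Gpr132 (ENSMUSG00000021298, chr12:112850873-112868228 on GRCm38, minus strand) was lower in CKO. It stood at 4.26 and 4.04 CPM in fl/fl and 1.86 and 1.46 CPM in CKO, and the groups did not overlap (log2 fold change −1.32 ± 0.24 (SE), adjusted p = 0.0162 by edgeR's quasi-likelihood test, as for every adjusted p below, with Benjamini-Hochberg adjustment over all genes tested). In the NOX_6_18 libraries it was 2.13 and 1.64 CPM in fl/fl and 2.81 and 2.41 CPM in CKO, so there the libraries labelled CKO were the higher ones and went against their label, although this difference was not called (log2 fold change 0.47 ± 0.24, adjusted p = 1). The genotype difference itself differed between vehicle and NOX_6_18 by −1.79 (adjusted p = 0.0344). The fl/fl libraries on NOX_6_18, whose label carries no Cre, were close to CKO on vehicle. Counts cover all exons, and which of them the loxP sites flank is not given in the sources used here, so the count checks the deletion only in part. Gpr132 was not called whichever 1 of the 4 vehicle libraries was left out (adjusted p up to 0.109).

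Among the other proton-sensing receptors, Gpr4, the endothelial member, was at 23.1 and 24.6 CPM in fl/fl and 22.2 and 22.3 CPM in CKO. Gpr65, found on lymphoid and myeloid cells, was at 12.2 and 12.7 CPM in fl/fl and 10.3 and 11.3 CPM in CKO. Neither passed the test (adjusted p = 0.754 for Gpr4 and 0.418 for Gpr65).

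Lyz2, whose promoter drives Cre, fell from 384 and 384 CPM in fl/fl to 287 and 288 CPM in CKO (log2 fold change −0.42 ± 0.04 (SE), adjusted p = 0.00044); on NOX_6_18 it was 283 and 279.9 CPM in fl/fl and 267 and 271 CPM in CKO, close to CKO on vehicle in both genotypes.

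**Figure D1:**
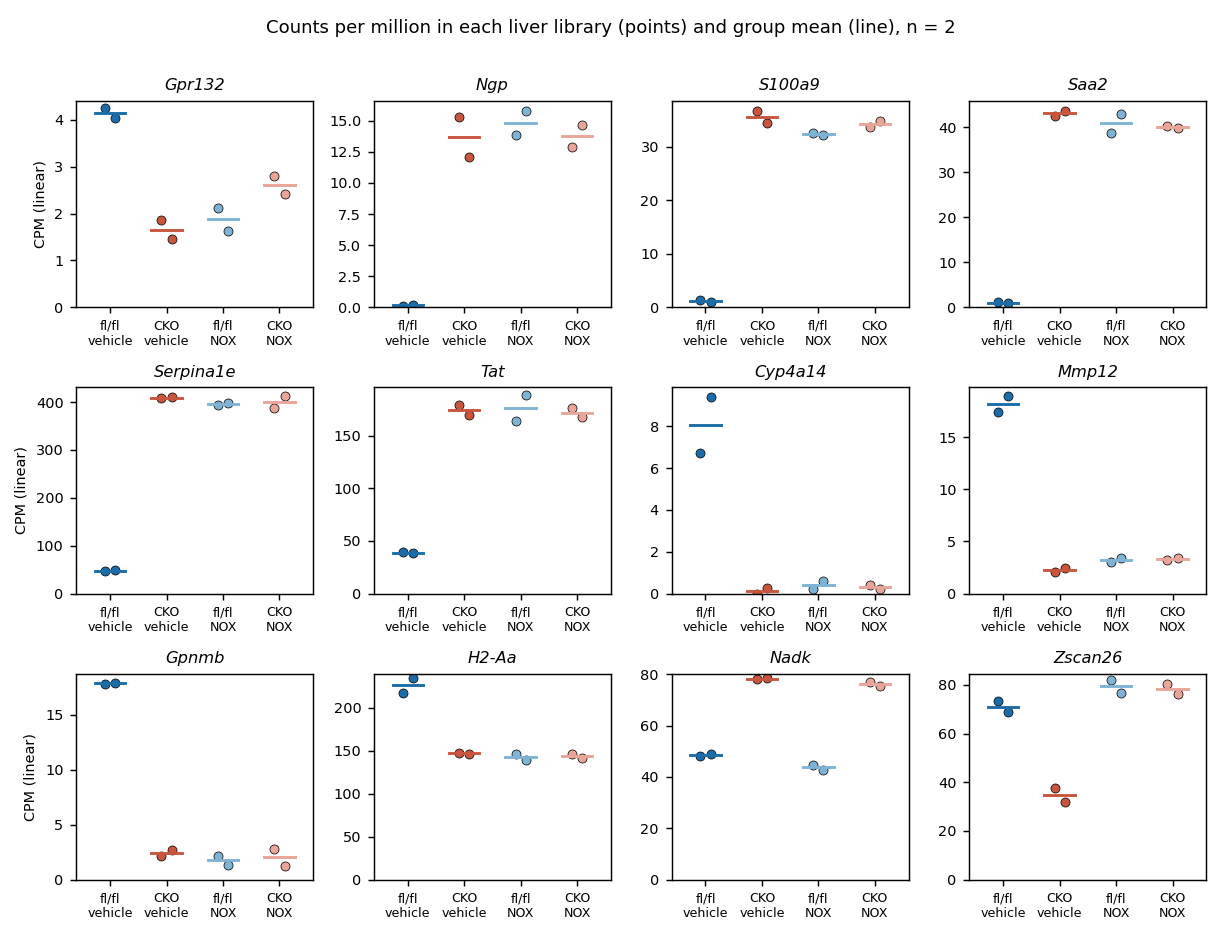
CPM (linear axis from 0) of 12 genes in each of the 8 liver libraries; points are libraries, lines are group means of 2, and NOX stands for NOX_6_18. In 10 panels (all but Nadk and Zscan26) the fl/fl vehicle points lie apart from those of the 3 other groups, in Nadk the genotypes separate under both treatments, and in Zscan26 only CKO on vehicle is low.

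Across the transcriptome 1131 genes were called at an adjusted p under 0.05, which is 5.8% of the 19515 tested: 773 were higher in CKO (3.96%) and 358 lower (1.83%). Of these, 258 rose and 83 fell by at least 2-fold. The median log2 fold change over all genes tested was −0.0071. The shares of 3.96% higher and 1.83% lower are the background for every count of list members below. Because the lists were chosen with earlier results of these data known, a count above that background is no result by itself. Among the largest rises were Mup1, Ngp, Mup12, Saa2, S100a9, Saa1 and Serpina1e. Mup1, a major urinary protein, was at 0 in fl/fl and at 9.86 and 13 CPM in CKO on vehicle, at least 395-fold higher when 3 counts over the group are taken as the floor. Cartilage gene Cnmd, at 0.0684 and 0.573 CPM in fl/fl and 6.89 and 5.72 CPM in CKO, and Rasd1, a small G protein induced by dexamethasone, at 2.29 and 3.26 CPM in fl/fl and 26.9 and 29.1 CPM in CKO, rose as well. Both CKO libraries were above both fl/fl libraries for each of these genes. Mup15, a further urinary protein gene, completes the 15 largest rises with Orm2, Cxcr2, S100a8, Selenbp2 and Mup17, described with their groups.

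Exons of 25.5% of the called genes overlapped those of another gene, against 35.1% of all genes tested. Whether reads were assigned by strand is not given in the sources used here, so such counts are uncertain. Of the called genes named below this holds for Stab2, Zscan26, Mmp12, Dnal1, Apoa4, Krcc1, Pax5, Mpo, Fgg, Cp, Plg, Sds, Dbp, Cry2, Mt2, Srebf1, Idi1, Fdps, Dnaja1, Hspa8, Hspa1a, Manf, Spp1, Ctsb, Cd74, Cx3cr1, Il4ra, Il1a, Il1b, Ephx1, Clec4g, Alas2, Krt7, mt-Co1, mt-Co3, Top2a, Ccnd1, Jun, Cish, Stat5a, Col4a1, Col4a2, Fn1, Hgf, Reln, Ftl1-ps1, Rab11b, Pim1, Adam1a and Gm42878.

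Among the largest falls were Cyp4a14, Mmp12, Gpnmb, Dnal1, Fcer2a, Apoa4, Cyp3a11, Nras, Ablim1, Mme, Cyp3a25, Krcc1, Saa3 and Pax5, from −6.06 to −1.40 in log2 fold change. Fcer2a, the low-affinity IgE receptor of B cells, was at 4.84 and 6.48 CPM in fl/fl and 1.26 and 1.18 CPM in CKO. Ablim1, an actin-binding protein, was at 38.1 and 15.7 CPM in fl/fl and 7.73 and 8.41 CPM in CKO, so its fl/fl libraries were more than 2-fold apart from each other. Nras, a small GTPase, was at 60.1 and 55 CPM in fl/fl and 17.6 and 16.5 CPM in CKO, and on NOX_6_18 at 17.6 and 56 CPM in fl/fl and 17.1 and 18.9 CPM in CKO, where 1 fl/fl library was as high as on vehicle and the other 3 libraries were low. Nras, Mme and Saa3 were not called whichever 1 of the 4 vehicle libraries was left out (adjusted p up to 0.217, 0.182 and 0.123, in that order). Fcer2a was not called without CKO replicate 1, CKO replicate 2 or fl/fl replicate 2 (adjusted p up to 0.0645). Ablim1 was not called without CKO replicate 1 or CKO replicate 2 (adjusted p up to 0.138).

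Neutrophil genes had the largest median difference among the gene lists. Of 13 tested, 11 rose and none fell, with a median log2 fold change of 3.27 against −0.0071 over all genes. S100a9 and S100a8, the subunits of calprotectin, differed alike: S100a9 stood at 1.39 and 0.971 CPM in fl/fl and 36.7 and 34.5 CPM in CKO. S100a8 stood at 0.735 and 0.772 CPM in fl/fl and 14.7 and 13.1 CPM in CKO. Ngp, a granule protein, went from 0.137 and 0.176 CPM in fl/fl to 15.3 and 12.1 CPM in CKO (log2 fold change 6.45 ± 0.24 (SE), adjusted p = 4.26e-06). Every one of these CKO values was more than 10 times every fl/fl value.

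Granule and receptor genes made up the rest of the list. The granule genes Camp (a mean of 0.094 CPM in fl/fl and 2.42 in CKO), Mpo (a mean of 0.157 CPM in fl/fl and 2.27 in CKO) and Mmp9 (a mean of 3.05 CPM in fl/fl and 11.7 in CKO) rose, as did Mmp8 and Lcn2. The chemokine receptor Cxcr2 stood at 0.239 and 0.971 CPM in fl/fl and 5.75 and 5.53 CPM in CKO. Retnlg, a resistin-like secreted protein, was at 1.83 and 1.92 CPM in fl/fl and 6.05 and 7.13 CPM in CKO. Csf3r, the receptor of granulocyte colony stimulating factor, rose (a mean of 13.5 CPM in fl/fl and 29.4 in CKO). Elane, neutrophil elastase, and Ltf, lactotransferrin, did not pass (log2 fold changes 3.71 and 0.66, adjusted p = 0.0989 and 0.106). Summed over the list, the level was 39.9 and 40.8 CPM in the fl/fl and 160.2 and 152 CPM in the CKO vehicle libraries. All 4 NOX_6_18 libraries, of either genotype, lay at 148 to 152 CPM, so the low value belonged to the fl/fl vehicle libraries alone. The median genotype difference of the list there was −0.067, and the interaction was called for 10 of its genes.

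**Figure D2:**
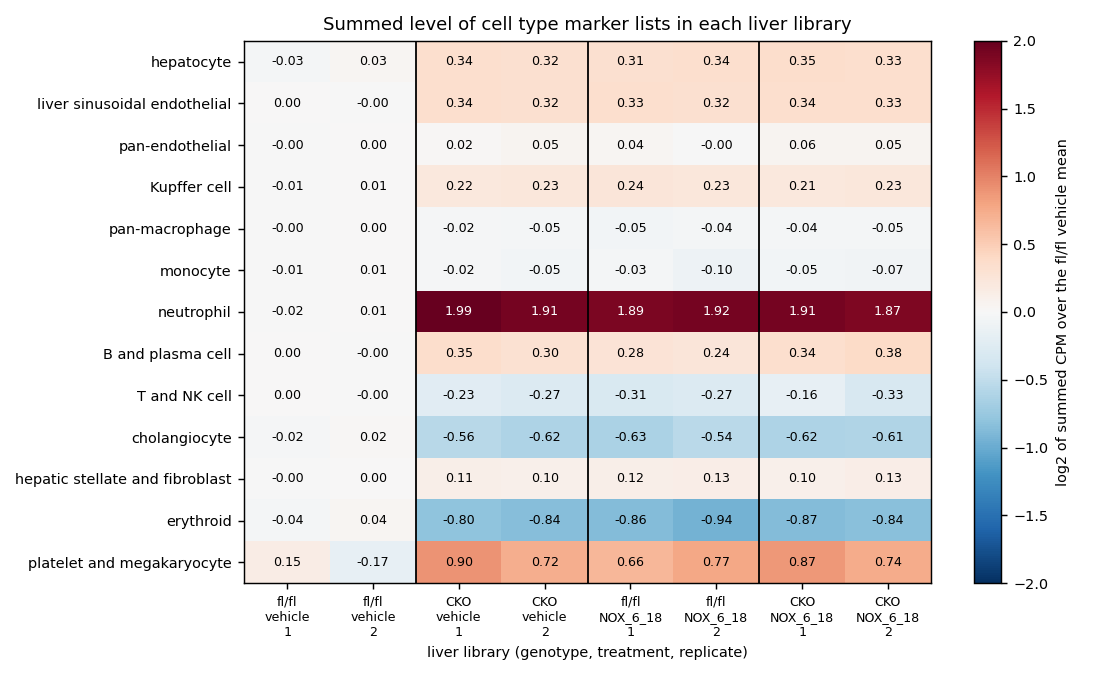
Summed CPM of 13 cell type marker lists in each liver library, as log2 of the ratio to the fl/fl vehicle mean; red is higher and blue lower. The 6 columns other than fl/fl on vehicle carry nearly the same values within a row, 1.87 to 1.99 for neutrophil and −0.94 to −0.80 for erythroid genes.

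Acute phase proteins, which hepatocytes release in inflammation, were mostly higher. Of 22 tested 15 rose and 2 fell (median log2 fold change 1.07). Saa2, serum amyloid A, was at 1.11 and 0.971 CPM in fl/fl and 42.5 and 43.6 CPM in CKO (log2 fold change 5.36 ± 0.11 (SE), adjusted p = 1.09e-07), and Saa1 at 2.75 and 1.7 CPM in fl/fl and 43 and 36.7 CPM in CKO. These 2 genes are near-identical copies, so how reads were split between them is uncertain. The haptoglobin gene Hp, whose product binds free haemoglobin, rose from 92.1 and 93.3 CPM in fl/fl to 259 and 249.5 CPM in CKO. The hemopexin gene Hpx, whose product binds haem, rose from 104 and 105 CPM in fl/fl to 229.7 and 215 CPM in CKO. Within each group both libraries lay close together. The 3 fibrinogen chains Fga, Fgb and Fgg rose by 0.94, 1.06 and 1.10 on the log2 scale, and the orosomucoids Orm1 and Orm2 by 1.94 and 3.09. Itih3, an inter-alpha-trypsin inhibitor chain, rose by 1.44.

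Saa3 and Cp were the genes that fell. Saa3, the serum amyloid of macrophages and endothelium, was at 5.9 and 5.43 CPM in fl/fl and 2.29 and 1.89 CPM in CKO (log2 fold change −1.43 ± 0.27 (SE), adjusted p = 0.0187), and the ceruloplasmin gene Cp fell by 0.38 on the log2 scale. Crp, Hamp, Lbp, Steap4 and Orm3 did not pass (adjusted p from 0.494 to 0.807). On NOX_6_18 the median genotype difference of the 22 genes was −0.016, and Saa2 was 38.8 and 43 CPM in fl/fl and 40.2 and 39.9 CPM in CKO, as high in fl/fl as in CKO.

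The promoters of Saa1, Saa2, Saa3 and Ngp are shown because Saa1 and Saa2 rose with Ngp while Saa3 fell, although all hold the C/EBP-type sequence TTGCNNAA or its reverse complement TTNNGCAA. C/EBP factors are known regulators of acute phase and granulocyte genes. The stretches are the 200 bases before the start, 5′ to 3′ on the gene's strand, from RefSeq on GRCm38.p6: chr7:46742981-46743180 (minus strand) for Saa1, chr7:46751633-46751832 (plus) for Saa2, chr7:46715677-46715876 (minus) for Saa3 and chr9:110419608-110419807 (plus) for Ngp. Capitals mark the match.
Saa1: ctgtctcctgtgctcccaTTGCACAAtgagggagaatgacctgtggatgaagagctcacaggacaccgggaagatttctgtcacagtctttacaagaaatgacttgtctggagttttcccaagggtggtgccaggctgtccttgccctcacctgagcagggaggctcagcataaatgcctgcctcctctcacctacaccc
Saa2: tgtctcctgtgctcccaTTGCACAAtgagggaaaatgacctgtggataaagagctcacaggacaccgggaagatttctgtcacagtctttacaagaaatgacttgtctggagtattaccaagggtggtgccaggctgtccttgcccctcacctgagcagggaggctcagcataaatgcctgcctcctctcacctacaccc
Saa3: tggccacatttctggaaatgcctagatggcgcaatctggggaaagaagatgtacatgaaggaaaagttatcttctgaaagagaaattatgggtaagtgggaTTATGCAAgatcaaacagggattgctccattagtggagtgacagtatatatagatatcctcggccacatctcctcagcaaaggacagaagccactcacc
Ngp: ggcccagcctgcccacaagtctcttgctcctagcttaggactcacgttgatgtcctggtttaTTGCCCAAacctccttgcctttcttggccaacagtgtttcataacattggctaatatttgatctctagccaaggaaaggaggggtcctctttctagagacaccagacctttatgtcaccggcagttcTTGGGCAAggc
The Saa1 and Saa2 stretches carry the match at nearly the same place, Saa3 carries another variant nearer its start, and Ngp carries a pair. Over the 300 bases around the start, 10.8% of 27025 promoters (the first listed for each gene, both strands searched) held this sequence. Of the 19 acute phase genes with a listed promoter, 11 held it, 8 of the 13 that rose, 1 of the 2 that fell and 2 of the 4 not called. Of 12 neutrophil genes 6 held it. A match is a description of the letters and not a bound site.

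Complement and coagulation factors, also made by hepatocytes, rose in 11 of 24 genes and fell in none (median log2 fold change 0.44), where 3.96% of all genes tested rose and 1.83% fell. The genes of the membrane attack complex were among them: C9 was at 10.1 and 10.5 CPM in fl/fl and 26.6 and 27.8 CPM in CKO. C8b was at 3.18 and 3.18 CPM in fl/fl and 8.78 and 12 CPM in CKO and C6, which Kupffer cells also express in the mouse, at 53.5 and 53.3 CPM in fl/fl and 80.00 and 77.6 CPM in CKO. Plg, plasminogen, went from 48.1 and 52.1 CPM in fl/fl to 85.1 and 84.5 CPM in CKO (log2 fold change 0.76 ± 0.07 (SE), adjusted p = 0.000502). The C1q chains C1qa, C1qb and C1qc, which macrophages make, did not pass (adjusted p from 0.213 to 0.46). In the NOX_6_18 contrast the median difference was 0.011.

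Genes with male-biased expression in mouse liver rose in 14 of 18 cases, with none lower (median 1.06). Serpina1e, an alpha-1-antitrypsin paralog, stood at 47.1 and 48.2 CPM in fl/fl and 407 and 411 CPM in CKO (log2 fold change 3.10 ± 0.05 (SE), adjusted p = 3.4e-08), the smallest adjusted p among all genes. Selenbp2, a selenium-binding protein, was at 6.69 and 6.51 CPM in fl/fl and 74.3 and 75.5 CPM in CKO, and Hsd3b5, a steroid dehydrogenase, at 1.09 and 0.971 CPM in fl/fl and 6.6 and 6.1 CPM in CKO. Major urinary proteins rose with them, Mup20 at 120.5 and 110.1 CPM in fl/fl and 245 and 238 CPM in CKO, but these genes are near-identical copies whose counts are uncertain. Mup12 was at 5.71 and 1.39 CPM in fl/fl and 142 and 219.6 CPM in CKO, and Mup17 at 31.5 and 26 CPM in fl/fl and 333 and 124 CPM in CKO, so the Mup17 counts of the CKO libraries were more than 2-fold apart. On NOX_6_18 the median difference of the list was −0.026. With 1 of the 4 libraries left out, 9 to 12 of the genes rose.

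Of the female-biased genes 7 of 15 passed the filter on low counts and only Cyp2b9 was called. It had 0 counts in both CKO vehicle libraries against 3.04 and 1.83 CPM in fl/fl, at least 97.1-fold lower in CKO. In the NOX_6_18 libraries it was at most 0.0999 CPM in either genotype. Cytochrome P450 genes moved both ways, 2 of 16 up and 3 down, Cyp2b9 among them. Cyp3a11 and Cyp3a25, enzymes of drug and steroid oxidation, fell, the first from 12.2 and 11.7 CPM in fl/fl to 3.84 and 3.09 CPM in CKO and the second from 9.25 and 10.1 CPM in fl/fl to 3.18 and 3.55 CPM in CKO. Cyp2e1, which oxidizes ethanol, rose by 0.29 and Cyp1a1 by 1.29 on the log2 scale. In the NOX_6_18 contrast the median difference was −0.031 for this list. Cyp2b9 and Cyp2e1 were not called whichever 1 of the 4 vehicle libraries was left out (adjusted p up to 0.126 and 0.145, in that order). Cyp1a1 was not called without CKO replicate 1, CKO replicate 2 or fl/fl replicate 1 (adjusted p up to 0.186).

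Amino acid catabolism and the urea cycle rose in 15 of 21 genes with none lower (median 0.65). Tat, tyrosine aminotransferase, was at 39.2 and 38.3 CPM in fl/fl and 179 and 169.6 CPM in CKO (log2 fold change 2.17 ± 0.07 (SE), adjusted p = 3.08e-06). The next steps of tyrosine breakdown moved with it, Hpd at 39.3 and 43.2 CPM in fl/fl and 92.7 and 83.9 CPM in CKO, and Hgd and Fah rose by 1.00 and 1.24 on the log2 scale. Sds, serine dehydratase, rose from 7.18 and 8.09 CPM in fl/fl to 23.4 and 21.8 CPM in CKO. In the urea cycle Ass1 was at 57.9 and 54.2 CPM in fl/fl and 123 and 128 CPM in CKO and Arg1 at 41.5 and 35.5 CPM in fl/fl and 85.7 and 84.3 CPM in CKO, and Otc and Asl rose by 0.96 and 0.78. Cps1, the entry step, did not pass (−0.13, adjusted p = 0.337). On NOX_6_18 Tat was 164 and 188 CPM in fl/fl and 176 and 168 CPM in CKO, and the median difference of the list was 0.053. Asl was not called without CKO replicate 1 or CKO replicate 2 (adjusted p up to 0.138).

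Gluconeogenesis gave 5 rises in 16 genes and none lower (median 0.32). Pck1, the cytosolic enzyme that commits carbon to glucose, stood at 57.6 and 55.8 CPM in fl/fl and 196 and 196 CPM in CKO (log2 fold change 1.79 ± 0.05 (SE), adjusted p = 6.82e-07). G6pc, the last step, did not pass (−0.42, adjusted p = 0.234). Gys2, the liver glycogen synthase, and Fbp1 rose by 0.73 and 0.40. With 1 of the 4 libraries left out 2 of the 16 genes rose, whichever it was. On NOX_6_18 the median difference was 0.01. Fbp1 was not called whichever 1 of the 4 vehicle libraries was left out (adjusted p up to 0.189). Gys2 was not called without CKO replicate 1, fl/fl replicate 1 or fl/fl replicate 2 (adjusted p up to 0.0915).

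Genes that glucocorticoids induce rose in 8 of 12 cases (median 0.93 on vehicle and 0.029 on NOX_6_18). Per1, Tat and Lcn2 stand on other lists too. Fkbp5, a chaperone of the glucocorticoid receptor, was at 33.2 and 30.5 CPM in fl/fl and 86.7 and 81.8 CPM in CKO, and Errfi1, a feedback inhibitor of the EGF receptor, at 55.2 and 50.3 CPM in fl/fl and 116 and 122 CPM in CKO. Per1 was at 38.6 and 35.6 CPM in fl/fl and 83.6 and 85.2 CPM in CKO, while other clock genes went the other way: Dbp, Cry2 and Per3 fell by 0.53, 0.67 and 0.43 on the log2 scale, 3 of 20 clock genes (0 to 2 with 1 library left out). Both metallothioneins rose, Mt1 from 24.4 and 24.7 CPM in fl/fl to 47.8 and 41.6 CPM in CKO and Mt2 from 5.64 and 4.68 CPM in fl/fl to 12.6 and 10.2 CPM in CKO. Hypoxia-induced genes rose in 6 of 14 cases (4 with 1 library left out), Ddit4, an inhibitor of mTORC1, from 17.7 and 21.2 CPM in fl/fl to 63.7 and 61.1 CPM in CKO and Adm, the vasodilator adrenomedullin, from 6.72 and 7.76 CPM in fl/fl to 21.6 and 15.7 CPM in CKO. Dbp and Cry2 were not called without CKO replicate 2, fl/fl replicate 1 or fl/fl replicate 2 (adjusted p up to 0.129 and 0.165, in that order). Per3 was not called without CKO replicate 1, CKO replicate 2 or fl/fl replicate 1 (adjusted p up to 0.13).

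Lipid genes did not move as 1 group. Among PPARalpha targets 5 of 24 rose (2 to 3 with 1 library left out) and 2 fell, with a median of 0.073 on vehicle and −0.0011 on NOX_6_18. The falls were the omega-hydroxylases of the Cyp4a family, Cyp4a14 at 6.72 and 9.4 CPM in fl/fl and 0 and 0.243 CPM in CKO. Cyp4a10 was at 4.58 and 5.38 CPM in fl/fl and 0.549 and 0.278 CPM in CKO. Pdk4, which restrains pyruvate oxidation, and Fabp1, the fatty acid carrier of hepatocytes, rose, Pdk4 from 22.9 and 22 CPM in fl/fl to 43.1 and 45.4 CPM in CKO and Fabp1 from 81 and 78.3 CPM in fl/fl to 152 and 143 CPM in CKO. Cpt1a, which commits fatty acids to mitochondrial oxidation, did not pass (adjusted p = 0.134).

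Fatty acid synthesis showed 4 falls and 2 rises in 22 genes. Scd1, the stearoyl-CoA desaturase, was at 168 and 181 CPM in fl/fl and 87.1 and 86 CPM in CKO (log2 fold change −1.01 ± 0.06 (SE), adjusted p = 5.57e-05). Fasn, fatty acid synthase, was at 63 and 64.8 CPM in fl/fl and 38.7 and 36.9 CPM in CKO, and Fads2 and the regulator Srebf1 fell by 0.34 and 0.47. Thrsp and Lpin1 rose by 0.61 and 0.73. With 1 library left out 2 to 3 of the genes fell, and the median on NOX_6_18 was 0.0063. Cholesterol synthesis had 2 rises, Idi1 and Fdps, and 1 fall in 23 genes. Fads2 was not called whichever 1 of the 4 vehicle libraries was left out (adjusted p up to 0.128). Srebf1 was not called without CKO replicate 1, CKO replicate 2 or fl/fl replicate 2 (adjusted p up to 0.141). Idi1 was not called without CKO replicate 1 or fl/fl replicate 2 (adjusted p up to 0.093). Fdps was not called without CKO replicate 1 or fl/fl replicate 1 (adjusted p up to 0.0787). Lpin1 was not called without fl/fl replicate 2 (adjusted p up to 0.0522).

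Apolipoproteins were split, 5 of 13 up (3 to 4 with 1 library left out) and 2 down. Apoa1, the main protein of high density lipoprotein, was at 169 and 168 CPM in fl/fl and 402 and 381 CPM in CKO (log2 fold change 1.21 ± 0.05 (SE), adjusted p = 9.07e-06), whereas Apoa4, an apolipoprotein of triglyceride-rich particles, was at 38.9 and 39.9 CPM in fl/fl and 11.5 and 11.2 CPM in CKO (log2 fold change −1.79 ± 0.09 (SE), adjusted p = 1.97e-05). Its exons overlap genes on the other strand, which makes its count uncertain. Apob fell by 0.69 on the log2 scale. On NOX_6_18 Apoa1 was 392 and 372 CPM in fl/fl and 366 and 385 CPM in CKO. Apoa4 there was 12.5 and 13.2 CPM in fl/fl and 10.5 and 10.9 CPM in CKO, again near the CKO vehicle values in both genotypes. Apob was not called whichever 1 of the 4 vehicle libraries was left out (adjusted p up to 0.215).

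Heat shock chaperones, most of the cytosol and some of mitochondria, rose in 13 of 20 genes and fell in 2 (median 0.62). Hsph1, a nucleotide exchange factor of HSP70, was at 38.3 and 36.5 CPM in fl/fl and 90.8 and 93.1 CPM in CKO (log2 fold change 1.3 ± 0.06 (SE), adjusted p = 1.35e-05), and its partner Dnaja1 at 110.1 and 114 CPM in fl/fl and 217 and 229 CPM in CKO. Hspa8, Hsp90aa1, Hsp90ab1 and Chordc1 rose by 0.63, 0.62, 0.46 and 0.84. The 2 falls were the stress-inducible HSP70 genes themselves, Hspa1a at 213 and 206 CPM in fl/fl and 119 and 114 CPM in CKO and Hspa1b at 289.5 and 276 CPM in fl/fl and 150.01 and 137 CPM in CKO; they are near-identical copies, so their counts are uncertain singly, but both fell. In the NOX_6_18 contrast the median difference of the list was −0.029. Hspa8 was not called without fl/fl replicate 1 or fl/fl replicate 2 (adjusted p up to 0.0768).

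The promoter of Chordc1 is shown because it is 1 of the 2 rising chaperone genes with the heat shock sequence TTCNNGAANNTTC (or its reverse complement GAANNTTCNNGAA) near the start. Heat shock factors are known to bind repeats of this kind. The stretch is chr9:18292117-18292296 on GRCm38.p6, plus strand, from RefSeq, with 150 bases before and 30 after the start, and capitals mark 3 overlapping matches.
Chordc1: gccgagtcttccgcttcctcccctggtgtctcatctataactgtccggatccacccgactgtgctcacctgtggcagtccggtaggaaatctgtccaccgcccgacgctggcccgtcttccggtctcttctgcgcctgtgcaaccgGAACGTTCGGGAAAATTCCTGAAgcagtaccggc
This sequence occurred in 0.529% of 27025 promoters, in 2 of 10 rising chaperones with a promoter in the table, in 0 of the 2 that fell and in 1 of the 4 not called. No match says only that these letters are not within those 300 bases.

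In the endoplasmic reticulum 7 of 23 stress genes rose (4 to 5 with 1 library left out) and 1, Atf3, fell. Hspa5, the lumenal HSP70, was at 161 and 159 CPM in fl/fl and 266 and 249 CPM in CKO, and Herpud1, Manf and Calr rose by 0.68, 0.64 and 0.34. On NOX_6_18 the median difference of the list was −0.048. Atf3 was not called without CKO replicate 1, CKO replicate 2 or fl/fl replicate 2 (adjusted p up to 0.226).

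Macrophage genes moved in both directions. Among the genes of lipid-associated macrophages 6 of 18 fell and 2 rose. Mmp12, macrophage elastase, was at 17.4 and 18.9 CPM in fl/fl and 2.02 and 2.45 CPM in CKO (log2 fold change −3.02 ± 0.16 (SE), adjusted p = 2.7e-05). Gpnmb, a lysosomal glycoprotein of lipid-laden macrophages, was at 17.8 and 17.9 CPM in fl/fl and 2.18 and 2.73 CPM in CKO (log2 fold change −2.86 ± 0.36 (SE), adjusted p = 0.00255). Trem2, the lipid receptor of these cells, fell by 1.22 on the log2 scale, and Spp1, Lpl and Lgals3 by 0.61, 0.65 and 0.66. Spp1 is a bile duct gene too and is counted again with that list, which also had falls. Fabp5 and Ctsb rose by 0.55 and 0.23. All 6 falls were kept whichever 1 of the 4 vehicle libraries was left out. On NOX_6_18 Mmp12 was 3.01 and 3.4 CPM in fl/fl and 3.2 and 3.41 CPM in CKO. Gpnmb there was 2.2 and 1.37 CPM in fl/fl and 2.83 and 1.22 CPM in CKO, in both genotypes near the CKO vehicle values, and the median difference of the list was 0.015.

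Genes of MHC class II, which presents antigen to helper T cells, fell in 7 of 10 cases with none higher (median −0.68). The alpha chain gene H2-Aa was at 218 and 235 CPM in fl/fl and 148 and 146 CPM in CKO. The beta chain gene H2-Ab1 was at 207 and 220.4 CPM in fl/fl and 123 and 142 CPM in CKO, and H2-Eb1 at 127 and 134 CPM in fl/fl and 83.7 and 81.4 CPM in CKO. Cd74, the invariant chain, fell by 0.41 on the log2 scale, and H2-Ob, H2-DMb2 and H2-DMb1 also fell. Ciita, the master regulator of the class, did not pass (−0.86, adjusted p = 0.0819). On NOX_6_18 H2-Aa was 146 and 139 CPM in fl/fl and 146 and 141 CPM in CKO, and the median difference of the class was 0.027. H2-DMb1 was not called whichever 1 of the 4 vehicle libraries was left out (adjusted p up to 0.141). H2-DMb2 was not called without CKO replicate 2, fl/fl replicate 1 or fl/fl replicate 2 (adjusted p up to 0.202).

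Among 10 monocyte genes 2 fell and 1, Chil3, rose. The falls were the chemokine receptors Ccr2, at 19 and 19.5 CPM in fl/fl and 10.2 and 9.8 CPM in CKO, and Cx3cr1, at 19.4 and 19.8 CPM in fl/fl and 10.3 and 8.06 CPM in CKO. Ly6c2, which marks inflammatory monocytes, did not pass (0.24, adjusted p = 0.695). Chil3 and Ccr2 were not called whichever 1 of the 4 vehicle libraries was left out (adjusted p up to 0.112 and 0.0768, in that order).

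Kupffer cell genes were higher: 8 of 16 rose and Id3, a transcriptional regulator, fell (median 0.25 on vehicle and 0.00089 on NOX_6_18). Marco, a scavenger receptor for bacteria, was at 31.2 and 30.02 CPM in fl/fl and 74.6 and 73 CPM in CKO (log2 fold change 1.27 ± 0.06 (SE), adjusted p = 1.35e-05), and Cd163, which takes up haemoglobin bound to haptoglobin, at 104 and 104 CPM in fl/fl and 144 and 166 CPM in CKO. The rises of Clec4f, Vsig4, Cd5l and Timd4 were smaller, 0.22, 0.32, 0.24 and 0.45. General macrophage genes were mostly level, with Lyz2 and Ms4a7 lower and Mertk higher among 18. Adgre1 and Csf1r had log2 fold changes of −0.0039 and 0.022. Summed over the list, general macrophage genes were at 2552 and 2564 CPM in fl/fl and 2524 and 2479 in CKO. With 1 library left out 4 to 6 of the Kupffer cell genes rose. Vsig4 and Ms4a7 were not called whichever 1 of the 4 vehicle libraries was left out (adjusted p up to 0.196 and 0.167, in that order). Timd4 was not called without CKO replicate 2 or fl/fl replicate 1 (adjusted p up to 0.0816). Mertk was not called without CKO replicate 2 or fl/fl replicate 2 (adjusted p up to 0.11).

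Alternative activation genes rose in 6 of 12 cases (median 0.56 on vehicle and 0.029 on NOX_6_18), and Irf4, a transcription factor of this state, fell (−1.12). Of the 6, 5 stand on other lists as well: Arg1 with the urea cycle, Cd163 with Kupffer cells, Chil3 with monocytes, Klf4 with the immediate early genes and Mrc1 with sinusoidal endothelium. Il4ra, the receptor chain for interleukin 4 and 13, was at 82.7 and 76.2 CPM in fl/fl and 121 and 128 CPM in CKO, and Mrc1, the mannose receptor, also abundant on sinusoidal endothelium, rose by 0.31. Among 13 cytokine genes 5 rose and none fell, and with 1 library left out 2 to 3 rose. Il1a was at 46.1 and 48.2 CPM in fl/fl and 81.5 and 79.5 CPM in CKO and Il1b at 17.7 and 16.4 CPM in fl/fl and 28.8 and 28.8 CPM in CKO, and Osm, Il33 and Csf1 were the others. Tnf and Il6 were low and did not pass (Tnf had a mean of 3.25 CPM in fl/fl and 1.95 in CKO, Il6 a mean of 1.24 CPM in fl/fl and 0.366 in CKO). Chemokines gave 1 rise, Ccl6 (0.82), and 1 fall, Cxcl9 (−0.50), in 18, and interferon response genes 1 fall, Ifit3b, in 25. The share of interferon response genes called, 4%, was below the 5.8% of all genes. In the family of enzymes that make and clear oxidized linoleate and eicosanoids, Ptgs2 and Ephx2 rose and Hpgds, Ephx1 and Cyp2j5 fell, of 14 (0 to 2 falls with 1 library left out). Irf4, Csf1, Ifit3b and Cyp2j5 were not called whichever 1 of the 4 vehicle libraries was left out (adjusted p up to 0.124, 0.233, 0.144 and 0.226, in that order). Osm and Cxcl9 were not called without CKO replicate 2, fl/fl replicate 1 or fl/fl replicate 2 (adjusted p up to 0.0644 and 0.102, in that order). Il33 was not called without CKO replicate 1, CKO replicate 2 or fl/fl replicate 1 (adjusted p up to 0.138). Hpgds was not called without CKO replicate 1, fl/fl replicate 1 or fl/fl replicate 2 (adjusted p up to 0.151). Ephx1 was not called without CKO replicate 1 or fl/fl replicate 2 (adjusted p up to 0.0633).

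Sinusoidal endothelial genes rose in 11 of 12 cases with small differences (median 0.28 on vehicle and 0.013 on NOX_6_18). Clec4g, an endothelial lectin, was at 773 and 789 CPM in fl/fl and 1187 and 1173 CPM in CKO, and Bmp2, which sets hepatic iron sensing, at 294 and 302 CPM in fl/fl and 584 and 529 CPM in CKO (log2 fold change 0.90 ± 0.05 (SE), adjusted p = 3.14e-05). Genes shared by all endothelium were near level: Kdr and Esam rose by 0.14 and 0.27, Vwf fell by 0.23, and 11 of 14 did not pass. Hepatocyte genes rose in 12 of 19 cases, but Alb, Apob and Cyp3a11 fell, Alb by 0.16 on the log2 scale. Many stand on other lists too and are counted again here: Apoa1, Fgb, Hp, Cyp2e1, Ass1, Tat and Pck1 of the rises, and Apob and Cyp3a11. Kdr and Esam were not called whichever 1 of the 4 vehicle libraries was left out (adjusted p up to 0.127 and 0.136, in that order). Vwf was not called without CKO replicate 1, fl/fl replicate 1 or fl/fl replicate 2 (adjusted p up to 0.0756).

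Globin genes fell, and the red cell list had 5 of 9 lower. The beta globin gene Hbb-bs fell from 2175 and 2222 CPM in fl/fl to 1236 and 1237 CPM in CKO (log2 fold change −0.83 ± 0.03 (SE), adjusted p = 7.66e-06). The alpha globin gene Hba-a1 fell from 2505 and 2663 CPM in fl/fl to 1452 and 1391 CPM in CKO. Globin genes have near-identical copies, so single counts are uncertain. Alas2, the first step of haem synthesis in red cells, fell by 0.54 on the log2 scale. Summed, red cell genes were at 7662 and 8081 CPM in fl/fl and 4509 and 4385 in CKO, against 4099 to 4399 CPM in the 4 NOX_6_18 libraries.

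Bile duct genes fell in 5 of 9 cases (median −0.58 on vehicle and 0.12 on NOX_6_18), Spp1 of the lipid-associated macrophage list included, and among them Krt7 and Sox9 (−0.71 and −0.65), while Krt19 did not pass (−0.20, adjusted p = 0.285). With 1 library left out 1 to 3 of the bile duct genes fell. Krt7 and Sox9 were not called whichever 1 of the 4 vehicle libraries was left out (adjusted p up to 0.122 and 0.178, in that order).

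Of 11 B and plasma cell genes 5 fell and 3 rose (median −0.45 on vehicle and −0.0029 on NOX_6_18). Pax5, the regulator of B cell identity, was at 8.33 and 6.88 CPM in fl/fl and 2.99 and 2.78 CPM in CKO. Cd79a, Cd79b and Ms4a1 fell by 1.14, 1.32 and 1.09 on the log2 scale. Igkc, the kappa light chain of antibodies, was at 29.5 and 34 CPM in fl/fl and 65.5 and 71.2 CPM in CKO, and Jchain, which joins antibody units, at 12.4 and 12.4 CPM in fl/fl and 26.3 and 24.1 CPM in CKO. Xbp1, a factor of antibody-secreting cells that also stands on the endoplasmic reticulum stress list, rose by 0.56. Ebf1, an early B cell factor, Ighm, the heavy chain of IgM, and Mzb1, a chaperone of antibody assembly, did not pass (−0.063, 0.12 and −0.45, adjusted p = 0.965, 0.452 and 0.74). Of 162 antibody gene segments tested 30 rose and 3 fell, where 3.96% of all genes tested rose and 1.83% fell. Jchain was higher in CKO on NOX_6_18 as well, at 18.5 and 16.7 CPM in fl/fl and 30.2 and 26 CPM in CKO, without passing there (adjusted p = 0.344). With 1 library left out 3 to 4 of the 11 B and plasma cell genes fell. Ms4a1 was not called whichever 1 of the 4 vehicle libraries was left out (adjusted p up to 0.171). Cd79b was not called without CKO replicate 1, CKO replicate 2 or fl/fl replicate 1 (adjusted p up to 0.0699). Xbp1 was not called without CKO replicate 1 or fl/fl replicate 1 (adjusted p up to 0.17).

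None of 15 T and NK cell genes passed by edgeR (2 had an unadjusted p under 0.05, and DESeq2 called 0). Cd3e, a chain of the T cell receptor complex, had the smallest p (−1.11, adjusted p = 0.0886). None of 6 adipocyte genes passed by edgeR either (2 at an unadjusted p under 0.05, DESeq2 1). Of 6 platelet genes 1 rose, Ppbp (1.73).

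Few or no ribosomal protein and nuclear oxidative phosphorylation genes were called, while mitochondrially encoded, proliferation and immediate early genes held more calls. None of 30 cytoplasmic ribosomal protein genes was called by edgeR (2 at an unadjusted p under 0.05, DESeq2 0, median 0.022). Of 30 nuclear subunits of oxidative phosphorylation 2 rose, Uqcrq among them. Their share, 6.67%, was near the 5.8% of all genes called. Both mitochondrial ribosomal RNAs rose, mt-Rnr1 from 1692 and 1796 CPM in fl/fl to 2842 and 3110.3 CPM in CKO and mt-Rnr2 from 1587 and 1669.5 CPM in fl/fl to 3084 and 3484 CPM in CKO, while mt-Co1, mt-Co3 and mt-Cytb fell by 0.13, 0.22 and 0.13 on the log2 scale (1 to 4 falls in 15 genes with 1 library left out). Proliferation genes gave 4 falls in 22, Mki67, Top2a, Ccnd1 and Mcm6 (median −0.37), and with 1 library left out 1 to 2 fell. Immediate early genes were split: Jun, Fos, Fosb and Atf3 fell and Fosl2, Klf2 and Klf4 rose, of 22. Jun was at 218 and 221 CPM in fl/fl and 136 and 118 CPM in CKO, and with 1 library left out 2 to 3 of the list fell. Uqcrq, Top2a and Mcm6 were not called whichever 1 of the 4 vehicle libraries was left out (adjusted p up to 0.227, 0.136 and 0.186, in that order). mt-Cytb and Mki67 were not called without CKO replicate 1, fl/fl replicate 1 or fl/fl replicate 2 (adjusted p up to 0.202 and 0.0832, in that order). Fosb was not called without CKO replicate 1, CKO replicate 2 or fl/fl replicate 1 (adjusted p up to 0.128). mt-Co1 was not called without fl/fl replicate 2 (adjusted p up to 0.0563).

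Other metabolic and stress lists held calls too, from 11.1% of the NRF2 targets to 38.5% of the IGF axis, against 5.8% of all genes. Of 20 bile acid genes 3 rose (1 to 3 with 1 library left out), Cyp7b1, Baat and the uptake carrier Slco1a1, and the export pump Abcc2 fell from 19.3 and 19 CPM in fl/fl to 10.2 and 9.65 CPM in CKO. Cyp7a1, the rate-limiting enzyme of bile acid synthesis, did not pass (0.34, adjusted p = 0.581). Of 13 genes of the growth hormone and IGF axis 4 rose (2 to 4 with 1 library left out), the binding proteins Igfbp1, Igfbp2 and Igfbp3 (2.03, 1.18 and 0.67) and Cish, and Stat5a fell (−0.57). Of 18 NRF2 targets Hmox1, which breaks down haem, rose (0.26) and Nqo1 fell (−0.79). The p53 list gave Sesn2 higher and Gdf15, a secreted stress hormone, lower (−1.81), of 13. Stat5a, Hmox1, Nqo1 and Gdf15 were not called whichever 1 of the 4 vehicle libraries was left out (adjusted p up to 0.204, 0.136, 0.079 and 0.115, in that order). Slco1a1 and Igfbp3 were not called without CKO replicate 1, CKO replicate 2 or fl/fl replicate 1 (adjusted p up to 0.0888 and 0.0881, in that order). Cyp7b1 was not called without CKO replicate 2 or fl/fl replicate 1 (adjusted p up to 0.0746). Igfbp1 was not called without CKO replicate 2 (adjusted p up to 0.0668).

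Among 23 matrix genes 3 rose (Col1a2, Lum and Acta2) and 5 fell (Col4a1, Col4a2, Fn1, Bgn and Timp2), none by more than 0.70 in size on the log2 scale. With 1 library left out 0 of them rose and 0 to 1 fell. Of 12 stellate cell genes Hgf, hepatocyte growth factor, rose (0.69) and Reln fell (−0.70). Lysosomal genes gave 3 rises in 23 (Lamp2, Neu1 and Atp6v0d1), 0 to 1 with 1 library left out. Of 13 lipid droplet genes Pnpla2, the triglyceride lipase, and its inhibitor Hilpda rose (0.57 and 1.27). Of 13 genes of cholesterol efflux Mylip alone rose (0.66), a share of 7.69%, near the 5.8% of all genes called. Col1a2, Lum, Acta2, Col4a1, Fn1, Timp2, Lamp2 and Neu1 were not called whichever 1 of the 4 vehicle libraries was left out (adjusted p up to 0.128, 0.0998, 0.216, 0.204, 0.173, 0.189, 0.122 and 0.206, in that order). Col4a2, Pnpla2 and Hilpda were not called without CKO replicate 2, fl/fl replicate 1 or fl/fl replicate 2 (adjusted p up to 0.0836, 0.0906 and 0.105, in that order). Bgn, Reln and Atp6v0d1 were not called without CKO replicate 1, CKO replicate 2 or fl/fl replicate 2 (adjusted p up to 0.127, 0.11 and 0.106, in that order).

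**Figure D3:**
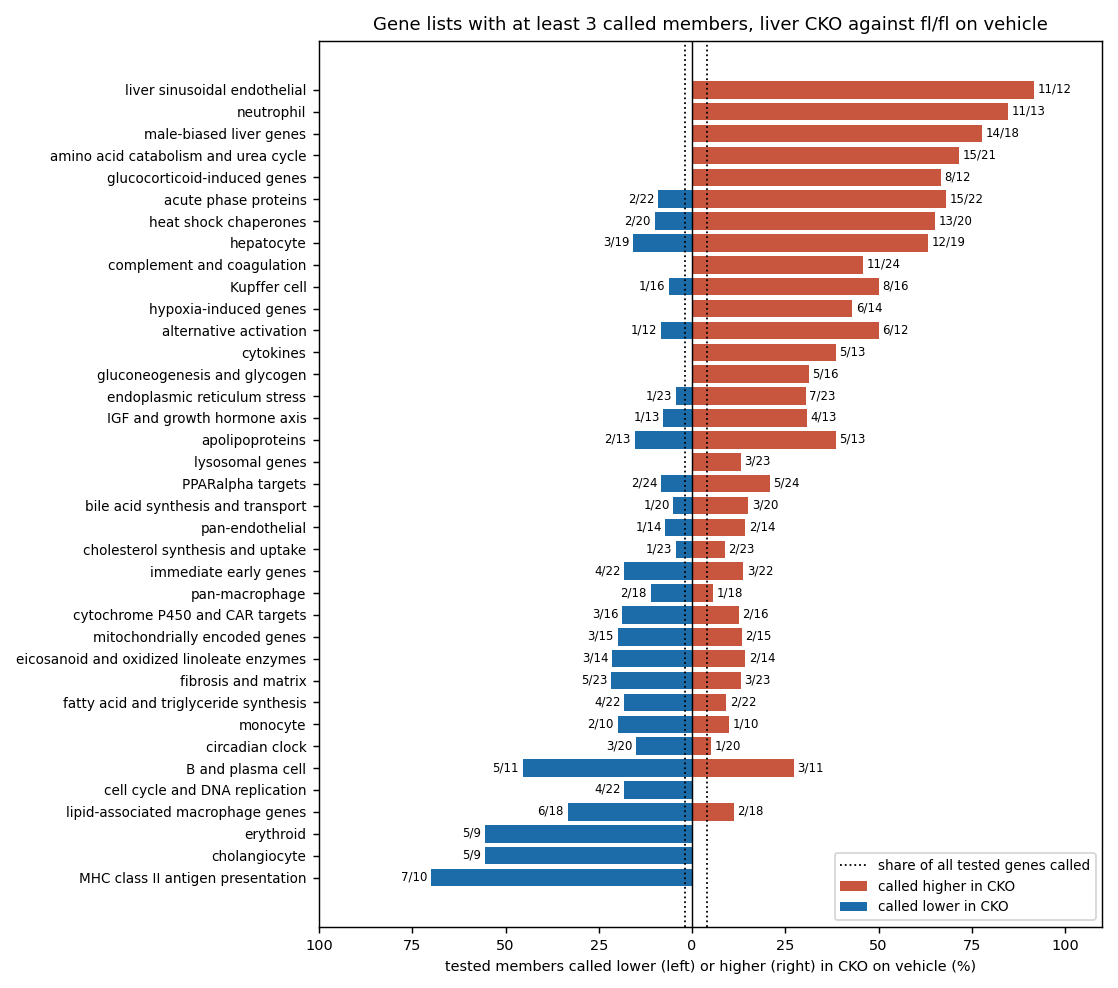
Share of the tested members of each gene list called higher (right, red) or lower (left, blue) in CKO on vehicle, for lists with at least 3 called members; figures give called over tested, and dotted lines mark the 3.96% and 1.83% of all genes. Sinusoidal endothelial (11 of 12), neutrophil (11 of 13) and male-biased genes (14 of 18) reach farthest right and MHC class II genes (7 of 10) farthest left. Of the 786 list genes tested 263 were called. The lists were chosen with earlier results of these data known, and lists with few calls are not drawn. A list that passes a dotted line is therefore no result by itself.

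The genotype contrast was then read in the 4 NOX_6_18 libraries, all given the antagonist, with no library in common with the vehicle contrast. There 7 genes were called (0.0359%), and 864 had an unadjusted p under 0.05. The genes that rose on vehicle had a median difference of 0.75 on vehicle and 0.0023 on NOX_6_18, and those that fell −0.64 and 0.020. Over all gene lists the median difference lay between −1.14 (female-biased genes) and 3.27 (neutrophil genes) on vehicle and between −0.14 (female-biased genes) and 0.25 (proton-sensing receptors) on NOX_6_18. The interaction tests whether the genotype difference depends on treatment. It was called for 478 genes (2.45%), of which 464 were also called on vehicle. It uses the fl/fl vehicle libraries too, so whatever else sets them apart enters it. In 950 of the 1131 genes the CKO vehicle values overlapped those of the 4 NOX_6_18 libraries. In 1112 of the 1131 both fl/fl vehicle libraries were outside the range of the 6 other libraries, 767 below and 345 above. Over all 19515 genes tested the same held for 4868 (24.9%). The called genes were chosen for a difference between the vehicle groups, which favours such separation, so the count is no result about them. For the 950 genes no share over all genes was taken, so that count is no result about them either.

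**Figure D4:**
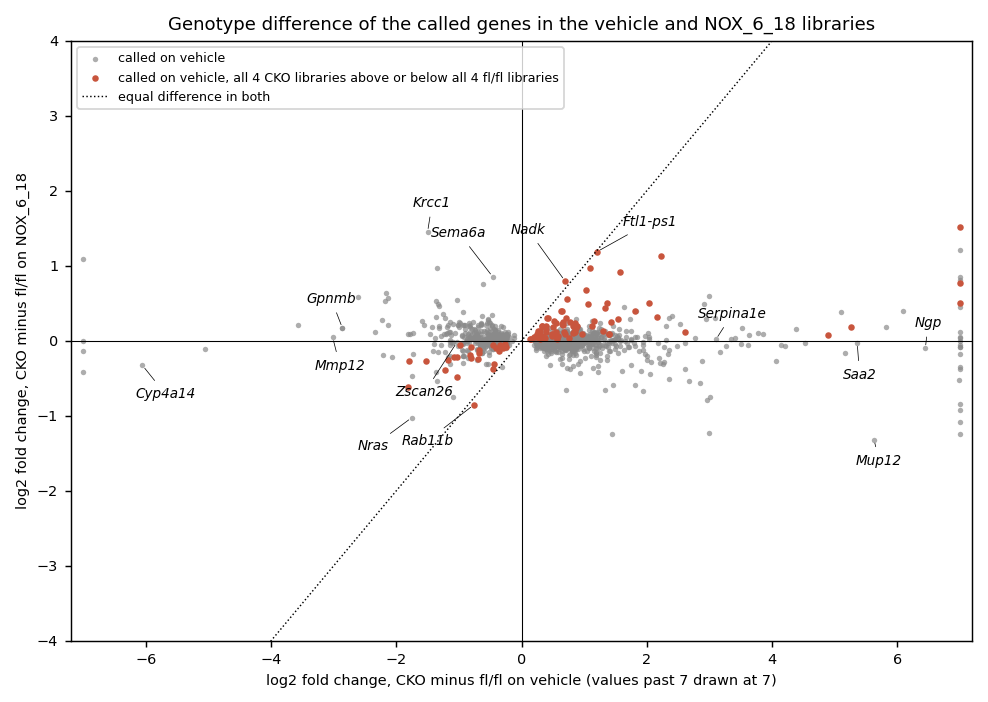
Log2 fold change of CKO minus fl/fl on NOX_6_18 (vertical) against that on vehicle (horizontal) for the 1131 genes called on vehicle; values past 7 are drawn at 7 and the dotted line marks equality. Most points lie along 0 on the vertical axis, and the red points are genes whose 4 CKO libraries lie above or below all 4 fl/fl libraries.

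Some of the called genes separated the genotypes under both treatments. All 4 CKO libraries were above all 4 fl/fl libraries in 73 called genes and below them in 25, 98 of 1131 (8.66%). Genes called on vehicle already separate there: of all 9467 genes whose vehicle groups did not overlap, 7.87% separated in this way (3.82% of all genes tested), so the share of the called genes is near that background and is no result about them. The genes named next were chosen after their values were seen. Nadk, the cytosolic kinase that makes NADP, stood at 48.2 and 48.9 CPM in fl/fl and 78.2 and 78.5 CPM in CKO on vehicle. On NOX_6_18 it stood at 44.7 and 42.9 CPM in fl/fl and 77 and 75.4 CPM in CKO. Its log2 fold changes were 0.69 ± 0.06 (adjusted p = 0.000275) and 0.80 ± 0.06 (adjusted p = 0.0027), so it was called in both. The ferritin pseudogene Ftl1-ps1, whose counts are uncertain because of its copies, was at 6.51 and 7.98 CPM in fl/fl and 18.2 and 15.2 CPM in CKO on vehicle. On NOX_6_18 it was 5.79 and 8.29 CPM in fl/fl and 16.5 and 15.5 CPM in CKO. Rab11b, a GTPase of recycling endosomes, was lower in CKO, at 55.7 and 55 CPM in fl/fl and 33.5 and 31.4 CPM in CKO on vehicle. In the NOX_6_18 libraries it was 64.7 and 46.7 CPM in fl/fl and 30.9 and 30.5 CPM in CKO.

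Clec4e, the receptor Mincle of macrophages, and Amy2a3, a pancreatic-type amylase, were higher in CKO under both treatments, Clec4e at 2.15 and 2.65 CPM in fl/fl and 5.01 and 5.21 CPM in CKO on vehicle. On NOX_6_18 it was 2.21 and 1.92 CPM in fl/fl and 3.35 and 4.77 CPM in CKO. Pim1, a serine/threonine kinase, was lower in both, at 28.6 and 26.8 CPM in fl/fl and 21.2 and 19.2 CPM in CKO and then 27.2 and 25.2 CPM in fl/fl and 20.3 and 20.1 CPM in CKO. For Clec4e, Amy2a3 and Pim1, and for Rab11b and Ftl1-ps1, the NOX_6_18 difference did not pass on its own (adjusted p from 0.295 to 1). Nadk was called whichever 1 of the 4 vehicle libraries was left out, at an adjusted p of at most 0.00442. Clec4e, Amy2a3, Pim1 and Rab11b were not called whichever 1 of the 4 vehicle libraries was left out (adjusted p up to 0.168, 0.159, 0.144 and 0.0902, in that order). Ftl1-ps1 was not called without CKO replicate 1 or fl/fl replicate 1 (adjusted p up to 0.0725).

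Another few genes stood out in CKO on vehicle alone, and were also chosen after their values were seen. Zscan26, a zinc finger gene, was at 73.3 and 68.7 CPM in fl/fl and 37.7 and 31.7 CPM in CKO on vehicle (log2 fold change −1.03 ± 0.09 (SE), adjusted p = 0.000369). In the NOX_6_18 libraries it was 82.1 and 76.8 CPM in fl/fl and 80.5 and 76.2 CPM in CKO. Dnal1, an axonemal dynein light chain, was at 6.16 and 5.36 CPM in fl/fl and 0.791 and 1.48 CPM in CKO on vehicle. On NOX_6_18 it was 4.94 and 5.08 CPM in fl/fl and 5.05 and 5.79 CPM in CKO. Arf2, a small GTPase of the Golgi, was at 34.4 and 35.9 CPM in fl/fl and 24.3 and 22.8 CPM in CKO on vehicle and at 32.8 and 33.9 CPM in fl/fl and 33.1 and 34.5 CPM in CKO on NOX_6_18. Adam1a rose and the predicted gene Gm42878 fell (1.3 and −5.06); their exons overlap, so how reads were split between them is uncertain. In this group the fl/fl vehicle libraries were level with the NOX_6_18 libraries, and the CKO vehicle libraries were the ones apart. Adam1a was not called without CKO replicate 2, fl/fl replicate 1 or fl/fl replicate 2 (adjusted p up to 0.124).

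Sema6a and Krcc1 turned around between treatments. Sema6a, a membrane semaphorin, was lower in CKO on vehicle (131 and 125 CPM in fl/fl and 92.7 and 93 CPM in CKO) and higher on NOX_6_18 (91.9 and 87.4 CPM in fl/fl and 162 and 162 CPM in CKO). Krcc1, a gene of unclear role, was at 23.9 and 22.6 CPM in fl/fl and 7.64 and 8.76 CPM in CKO on vehicle. On NOX_6_18 it was 8.71 and 8.14 CPM in fl/fl and 22.6 and 23.4 CPM in CKO, the reverse order. The interaction was called for both (−1.31 and −2.95, adjusted p = 9.98e-05 and 7.62e-05). The mitochondrial gene mt-Atp6 differed between libraries of 1 group, at 4441 and 4735 CPM in fl/fl and 4014 and 25135 CPM in CKO on vehicle and 23411 and 26670.000 CPM in fl/fl and 3976 and 3854 CPM in CKO on NOX_6_18, with exons that overlap mt-Atp8 and mt-Co3, and its difference did not pass on vehicle (adjusted p = 0.204).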

How the data were processed

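RNA sequencing of 16 libraries in 8 groups of 2 was deposited as tables of counts per gene, 55421 genes each; the 8 liver libraries are used here. Gene counts were deposited by the authors as whole numbers that were not normalized. Per the submitters' processing notes, which give no order or role, the tools were HISAT, featureCounts 1.5.0 and DESeq 1.8.3, and the build was GRCm38. The annotation release and the strand setting of the counting were not given in the sources used here. Per the labels' protocols, libraries were made with a stranded KAPA kit from TRIzol RNA. Symbols for 99.7% of the gene identifiers and exon overlaps come from the GENCODE M21 annotation of GRCm38.

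No library pair was identical. Genes were filtered with edgeR's filterByExpr over the 8 liver libraries, which left 19515. TMM scaling and edgeR's quasi-likelihood test (edgeR 4.0.16, R 4.3.3) with 1 coefficient for each group gave fold changes of CKO over fl/fl on vehicle, on NOX_6_18 and their interaction, with Benjamini-Hochberg adjustment over all genes tested. A gene was called at an adjusted p under 0.05. CPM values use the TMM-scaled library totals. For a gene at 0 in a group, a bound on the fold was set by taking 3 counts over that group as the floor, which covers counting error only. The edgeR, DESeq2 and limma-voom fits were tested on simulated data with known fold changes on vehicle. The alternatives were DESeq2 1.42.0, limma-voom (limma 3.58.1), other scalings and filters, other sets of libraries, a fold threshold, a replicate block and leaving out each vehicle library. Same-numbered libraries did not deviate together (correlations of −0.027 to 0.0060), so the numbers of the titles were not taken as pairs.

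Named genes were Gpr132 and the 15 largest rises and the 15 largest falls among called genes. The rises and falls had at least 5 CPM in the mean of the higher group and no overlap between groups. Predicted genes, pseudogenes, antibody and T cell receptor segments, Xist and Y-linked genes were barred from them, so their absence there is no result. Up to 4 called genes with the smallest adjusted p were added from each gene list. Further members of the lists are named to complete a group, and these, the other proton-sensing receptors and the genes said so in the text were chosen after their values were seen. Results on a few genes that this rule names are not reported here. The comparison, its gene lists and the motifs were chosen with earlier results of these data known. List symbols Cyp2c44, C5, Ctgf and Ahsp were not found in the tables under these names.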

Additional observations from a re-analysis of the deposited data

Results flagged for a closer look

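The interaction of genotype and treatment was called by edgeR for 478 genes, and 139 of the genes named in the report are among them. The interaction also uses the fl/fl vehicle libraries, which lay far from the other liver libraries. A dependence on treatment cannot be told apart from whatever else sets these libraries apart. Each value is the genotype difference (CKO minus fl/fl) on vehicle minus that on NOX_6_18, on the log2 scale, so a positive value means that the difference was larger, in the sense of higher CKO, on vehicle. Each passed at an adjusted p under 0.05, and no explanation was tested. Groups of 2 libraries are too small for a check of single outlying libraries.

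Genes outside the lists gave Mup12 (6.95), Mup15 (4.33), Cnmd (4.23), Rasd1 (3.32), Rnf13 (0.826), Arf2 (−0.597), Zscan26 (−1.01) and Sema6a (−1.31). Genes outside the lists further gave Vsir (−1.54), Dnal1 (−2.46), Krcc1 (−2.95) and Gm42878 (−4.95). Acute phase proteins gave Saa2 (5.39), Saa1 (4.2), Orm2 (2.78), Orm1 (1.96), Itih3 (1.46), Hp (1.45), Fgg (1.15), Hpx (1.1) and Fgb (1.08). Acute phase proteins further gave Lcn2 (1.02), Fga (0.954) and Cp (−0.438). Neutrophil genes gave Ngp (6.55), S100a9 (4.82), Camp (4.56), S100a8 (4.27), Mpo (3.77), Cxcr2 (3.33), Mmp8 (2.86), Mmp9 (2.06) and Retnlg (1.88). Lipid-associated macrophage genes gave Fabp5 (0.445), Ctsb (0.223), Spp1 (−0.559), Lpl (−0.632), Lgals3 (−0.655), Trem2 (−1.52), Gpnmb (−3.03) and Mmp12 (−3.06). Amino acid catabolism and urea cycle gave Tat (2.21), Sds (1.64), Fah (1.15), Hpd (1.01), Hgd (0.944), Otc (0.914) and Ass1 (0.906). Heat shock chaperones gave Hsph1 (1.17), Dnaja1 (1.03), Chordc1 (0.877), Hsp90aa1 (0.615), Hsp90ab1 (0.496), Hspa1a (−0.83) and Hspa1b (−0.919). Male-biased liver genes gave Mup1 (12.4, a fitted value with 0 counts in 1 group), Mup17 (4.23), Selenbp2 (3.54), Serpina1e (3.09), Hsd3b5 (2.5) and Mup20 (1.06). Alternative activation genes gave Arg1 (1.23), Klf4 (0.641), Il4ra (0.609), Cd163 (0.603) and Mrc1 (0.292). MHC class II genes gave Cd74 (−0.461), H2-Eb1 (−0.562), H2-Aa (−0.632), H2-Ab1 (−0.878) and H2-Ob (−1.3). Complement and coagulation gave C8b (1.79), C9 (1.4), Plg (0.748) and C6 (0.505). Endoplasmic reticulum stress gave Manf (0.874), Herpud1 (0.742), Hspa5 (0.689) and Calr (0.379). B and plasma cell genes gave Igkc (1.1), Pax5 (−1.35) and Cd79b (−1.48). PPARalpha targets gave Pdk4 (0.992), Fabp1 (0.899) and Cyp4a10 (−3.78). Immediate early genes gave Fosl2 (0.74), Klf2 (0.721), Fos (−0.498) and Jun (−0.823). Mitochondrially encoded genes gave mt-Rnr2 (1), mt-Rnr1 (0.795), mt-Co1 (−0.197) and mt-Co3 (−0.332). Red cell genes gave Alas2 (−0.631), Hbb-bs (−0.872) and Hba-a1 (−0.928). Kupffer cell genes gave Marco (1.22), Cd5l (0.291) and Id3 (−0.492). IGF and growth hormone axis gave Igfbp2 (1.09), Igfbp4 (0.808) and Cish (0.794). Fatty acid and triglyceride synthesis gave Thrsp (0.601), Fasn (−0.79) and Scd1 (−0.935). Lists with fewer such genes gave Pck1 (1.82), Ddit4 (1.71), Ppbp (1.44), Adm (1.4), Ptgs2 (1.34), Fkbp5 (1.31), Per1 (1.25), Apoa1 (1.24) and Errfi1 (1.13). Smaller lists gave Gys2 (1.09), Bmp2 (0.904), Mt1 (0.821), Hgf (0.8), Il1a (0.785), Uqcrq (0.77), Ccl6 (0.766), Il1b (0.751) and Mylip (0.704). The remaining lists gave Ephx2 (0.7), Sesn2 (0.613), Clec4g (0.585), Vwf (−0.29), Ccnd1 (−0.336), Lyz2 (−0.356), Col4a1 (−0.484), Per3 (−0.632) and Ifit3b (−0.821). Further lists gave Abcc2 (−0.924), Nqo1 (−0.95), Cyp3a25 (−1.25), Cx3cr1 (−1.32), Apoa4 (−1.53), Gpr132 (−1.79) and Cyp3a11 (−1.87).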

How the results depend on the processing

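With 1 vehicle library left out, where the remaining library of its group is assumed to vary like the other groups, 605 to 641 genes were called on vehicle, 440 to 486 higher and 139 to 168 lower, against 1131, 773 and 358. In these fits fewer samples enter. A change of at least 1 on the log2 scale as a second condition left 341 genes, 258 higher and 83 lower. The other settings tried (DESeq2, limma-voom, other scalings, other filters, mitochondrially encoded genes left out, other sets of libraries, the replicate block) called 814 to 1446 genes. On NOX_6_18, where edgeR called 7 genes, DESeq2 called 42, a fit over all 16 libraries 1, a fit without a filter on low counts 20, and fits with 1 vehicle library left out 12 to 15. DESeq2 called 829 genes for the interaction against 478. The cause was not tested. The share of called genes that were higher was 68.3% and ranged from 62.4% (limma-voom) to 77.3% over the settings. With the replicate number of the titles as a replicate block, 918 genes were called on vehicle (649 higher and 269 lower), 7 on NOX_6_18 and 390 for the interaction, but the numbers are shared only by name. Of the 231 called genes named in the text or its rule, 89 lost the call in at least 1 of the 4 fits with a library left out and 43 in each of them, and none of these genes changed direction in any setting. With 2 libraries in a group, a difference near the spread between libraries was not detectable.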

Other observations

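Among the 7 genes called between genotypes on NOX_6_18, Nadk, Krcc1 and Sema6a are described above, and the 3 named here were not called on vehicle. Igfbp4, which binds insulin-like growth factors, was 479.6 and 471 CPM in fl/fl and 289 and 287 CPM in CKO on NOX_6_18 (log2 fold change −0.72 ± 0.05 (SE), adjusted p = 0.00251 by edgeR). On vehicle it was 444 and 448 CPM in fl/fl and 496 and 449.6 CPM in CKO. Vsir, the checkpoint receptor VISTA of myeloid and T cells, was 32.6 and 39.1 CPM in fl/fl and 112 and 98.3 CPM in CKO on NOX_6_18 (log2 fold change 1.56 ± 0.10 (SE), adjusted p = 0.00251 by edgeR), and 108 and 117 CPM in fl/fl and 119 and 109.8 CPM in CKO on vehicle. Rnf13, a ubiquitin ligase of endosomes, was 56.6 and 61 CPM in fl/fl and 30.4 and 29.3 CPM in CKO on NOX_6_18 (log2 fold change −0.98 ± 0.09 (SE), adjusted p = 0.00716 by edgeR), and 27.8 and 30.9 CPM in fl/fl and 25.2 and 27.5 CPM in CKO on vehicle. These 3 genes were chosen after their values were seen.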
